A study of Homo sapiens with 6 samples.

Results

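The endoplasmic reticulum (ER) unfolded protein response genes described here are 10 genes named by symbol: HSPA5, HSP90B1, CALR, CANX, PDIA4, PDIA6, DNAJB9, HERPUD1, XBP1 and SDF2L1. They are given by name, and the choice was made with earlier results of these data known. All 10 were found among the 19974 annotated genes of a table of 26184 genes and loci. Huh7 is an established human hepatocellular carcinoma cell line. RNA was sequenced from 3 samples of untreated parental cells (Huh7 P, labelled time 0) and from 3 samples of cells made resistant to lenvatinib (Huh7 LR), an inhibitor of several receptor tyrosine kinases. The Huh7 LR cells were derived from Huh7 P under lenvatinib raised from 1 μM, were kept in 20 μM, and are labelled 10 months. Both lines are labelled WT, and Huh7 LR is 1 derived line, so its 3 samples are repeats of that line and the spread between them does not cover a second derivation. Whether lenvatinib was in the medium at harvest is not stated.

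The ER folds most secreted and membrane proteins, and a hepatocyte or hepatoma cell secretes a large amount of protein. When unfolded proteins build up there, the sensors IRE1 (gene ERN1), PERK (EIF2AK3) and ATF6 act through the transcription factors XBP1, ATF4 and cleaved ATF6, which raise genes for chaperones, folding enzymes and the degradation of misfolded proteins. IRE1 works by splicing the XBP1 mRNA, which a count per gene cannot show, and the cleavage of ATF6 is likewise not visible in mRNA levels. Many genes of this response carry a promoter sequence called the ER stress response element (ERSE), in which CCAAT binds the factor NF-Y and CCACG binds ATF6 or XBP1.

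Between 62738937 and 71427573 reads were counted on genes and loci per library. CPM below means counts scaled to library size with the TMM factors of edgeR, and FPKM means the deposited value scaled by transcript length and library size. The lines were compared gene by gene in edgeR's quasi-likelihood test, and p-values were adjusted over 17531 genes and loci by the Benjamini-Hochberg method. Genes are called higher or lower where the adjusted p is under 0.05, and called by more than 2-fold where it is under 0.001 and the log2 fold change (Huh7 LR minus Huh7 P throughout) lies beyond 1 in size. The 8 hepatocyte and hepatoma markers checked, among them ALB and AFP, summed to between 40776 and 49328 CPM in Huh7 P and between 51389 and 54258 CPM in Huh7 LR. Of the markers of other cell types, DCN (fibroblasts), TYROBP and HLA-DRA (leukocytes) and CDH5 (endothelium) were at 0 in every library. Others were not. In mean CPM from Huh7 P to Huh7 LR, the fibroblast markers COL1A1 (1.28 to 4.59) and PDGFRB (0.81 to 1.44) were called higher. So were the endothelial markers PECAM1 (43.9 to 68.7) and VWF (0.04 to 0.32). The leukocyte marker LYZ (63.7 to 9.18) was called lower, and PTPRC (0.05 and 0.10) had too few counts to test. Summed markers of fibroblasts (6 genes) were 2.15 to 2.28 CPM in Huh7 P and 5.02 to 8.02 CPM in Huh7 LR, those of leukocytes (6 genes, mainly LYZ) 62.0 to 67.5 and 9.83 to 13.8 CPM, and those of endothelium (4 genes, mainly PECAM1) 39.2 to 47.9 and 65.6 to 71.6 CPM. These lists moved with the lines, and the part of other cell types in the results below was not tested.

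The promoter windows are shown first because an ER stress response element was found in 8 of the 10. In RefSeq promoter windows (GRCh38.p14) of 250 bases before to 50 bases after each transcription start, ERSE was searched as CCAAT, 9 bases of any kind and CCACG, and its shorter form ERSE-II as ATTGG, 1 base of any kind and CCACG, both on either strand. All 10 genes have a window. ERSE or ERSE-II was present in 8 of the 10 genes (80%), and in 44 of 27305 genes with a window (0.161%), these 8 included. The element was already described for genes of this response, so its share among the 10 is a description and not a test. ERSE alone was in 27 of 35116 windows (0.0769%), and ERSE-II alone in 19 (0.0541%). Below, in the direction of each gene, the capitals mark the fixed letters of the element, and an element on the opposite strand reads as its reverse complement. The HSPA5, CALR and SDF2L1 elements are printed with their surroundings, and the others as the element alone.
HSPA5, chr9:125241371-125241429, minus strand: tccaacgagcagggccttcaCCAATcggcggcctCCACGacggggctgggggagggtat
HSP90B1, first element, chr12:103930216-103930234, plus strand: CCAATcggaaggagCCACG
HSP90B1, second element, chr12:103930321-103930339, plus strand: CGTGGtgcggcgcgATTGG
CALR, chr19:12938364-12938422, plus strand: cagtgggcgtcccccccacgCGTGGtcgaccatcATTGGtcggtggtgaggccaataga
CANX, chr5:179698778-179698796, plus strand: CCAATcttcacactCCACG
PDIA6, chr2:10812853-10812871, minus strand: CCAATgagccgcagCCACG
XBP1, chr22:28800603-28800621, minus strand: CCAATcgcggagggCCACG
HERPUD1, ERSE-II, chr16:56932025-56932035, plus strand: ATTGGgCCACG
SDF2L1, ERSE-II, chr22:21642094-21642144, plus strand: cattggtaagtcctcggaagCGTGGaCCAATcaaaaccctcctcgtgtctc

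The 9 bases between the fixed letters of ERSE differed from gene to gene, while the fixed letters are alike because the search asked for them. The HSPA5 element lay 66 to 48 bases before the start, and that of XBP1 52 to 34 bases before it. In HSP90B1 the pair of elements lay 194 to 176 and 89 to 71 bases before the start, on opposite strands. The CALR element lay farthest out, at 225 to 207 bases. DNAJB9 and PDIA4 held neither form, which says only that these letters are absent from their windows, and no window of the 10 genes held TGACGTGG, the core of another element of the response (UPRE), on either strand. CANX, PDIA4, PDIA6 and XBP1 have more than 1 RefSeq start, and the distances given are from 1 of these starts. The CANX element lay 151 to 133 bases before the start used here and across another of its starts. A match is a description of the letters and no evidence that a factor was bound in these cells.

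**Figure D1:**
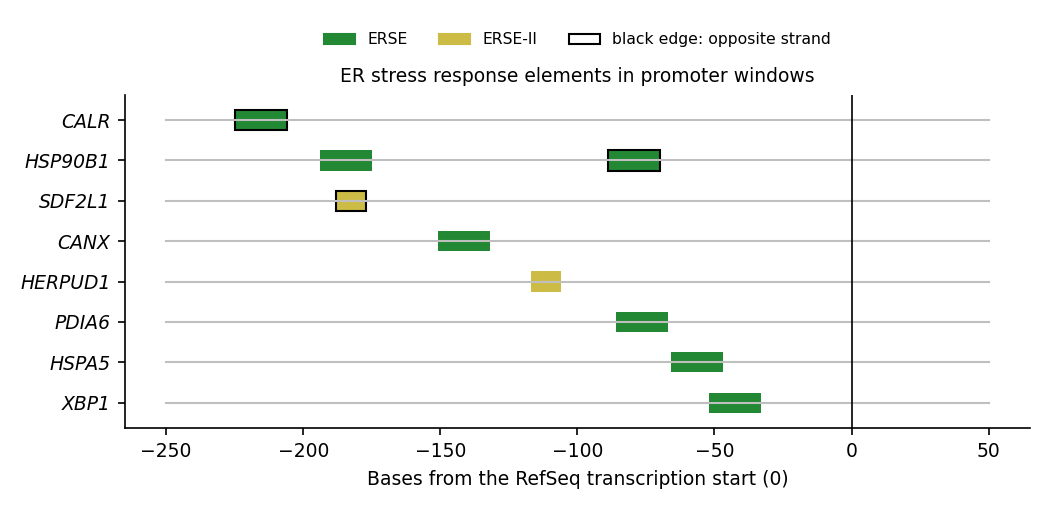
Positions of ERSE (green) and ERSE-II (yellow) in the promoter windows of the 8 genes that hold one, in bases from the RefSeq transcription start at 0, with a black edge where the element lies on the opposite strand. HSP90B1 has 2 elements, and by the starts drawn the XBP1 and HSPA5 elements lie nearest the start, while the CANX element lies across another RefSeq start of that gene.

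Across the 10 genes, 4 were lower in Huh7 LR (HSP90B1, CANX, HSPA5 and PDIA6), 2 were higher (HERPUD1 and DNAJB9), and CALR, PDIA4, XBP1 and SDF2L1 did not pass the test. Of all genes and loci tested, 22.4% were lower and 23.3% were higher (45.7% in either direction). Among the 4383 genes and loci with the highest mean level, 35.0% were lower and 20.3% were higher (55.3% in either direction). All of the 10 genes but DNAJB9 and SDF2L1 were among these 4383, and of those 8 genes 4 were lower, 1 was higher and 3 did not pass. In bulk RNA, a change in every cell cannot be told apart from a change in how many cells express a gene. The median log2 fold change of the 10 genes was -0.22, against 0.0046 over all genes and loci. By the 2-fold rule 0 of the 10 were higher and 0 were lower, against 4.43% and 1.78% of all genes and loci (6.21% in either direction). By an unadjusted p under 0.05 of edgeR's test 2 were higher and 5 were lower, against 26.7% and 26.0% of all genes and loci. With 1 library left out, 1 to 2 of the 10 were higher and 2 to 6 were lower at an adjusted p under 0.05. Of all genes and loci, 3349 to 4135 were higher and 3002 to 3984 lower with 1 library left out, against 4093 and 3923 with all libraries. The counts that follow are of the 10 genes. There were 1 higher without Huh7 P sample 1, Huh7 P sample 2 or Huh7 LR sample 3, and 2 lower without Huh7 P sample 2, Huh7 P sample 3 or Huh7 LR sample 3. At an adjusted p under 0.01, 1 was higher and 2 were lower, against 16.2% and 15.3% of all genes and loci. With DESeq2's Wald test, 2 were higher and 5 lower by adjusted p, against 23.4% and 23.0%, and no log2 fold change of the 10 reached 1 in size under any of the alternatives run. The libraries of the lines did not overlap for 6 of the 10 genes, against 55.9% of all genes and loci.

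**Figure D2:**
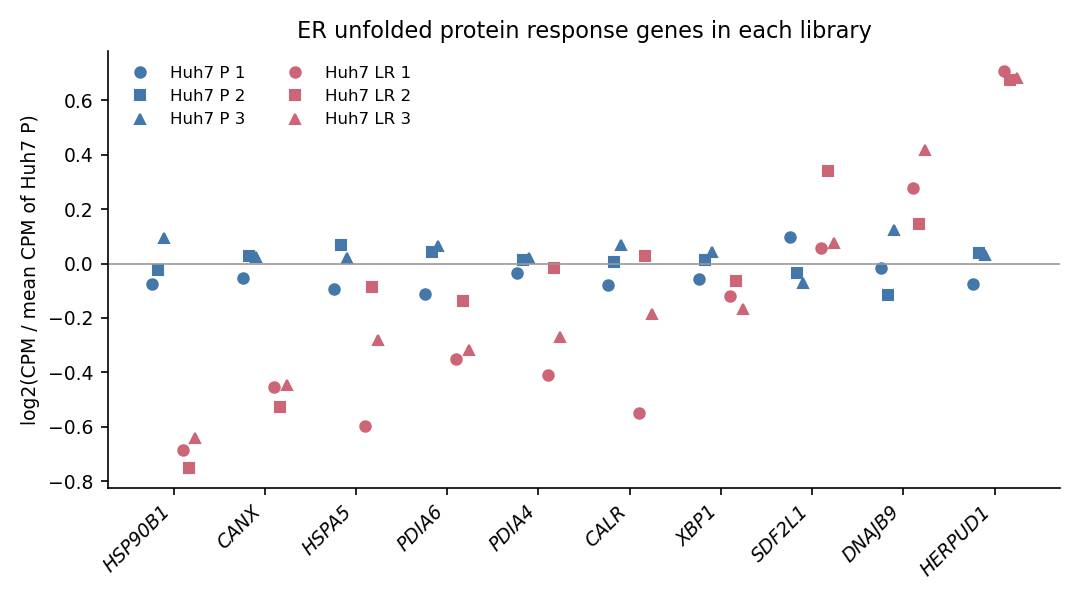
Level of each of the 10 genes in each library, as the log2 ratio of its CPM to the mean CPM of Huh7 P (0, grey line); blue is Huh7 P, red is Huh7 LR, and the symbol gives the sample number. HERPUD1 is raised in all 3 Huh7 LR libraries, HSP90B1 and CANX are lowered in all 3, and for HSPA5, CALR and PDIA4 the Huh7 LR libraries spread widely and overlap Huh7 P.

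HSPA5 (BiP, GRP78; ENSG00000044574, chr9:125234853-125241330, GRCh38 minus strand) is the ER member of the HSP70 chaperones and holds the sensors inactive when folding capacity is ample. Its level was 730.5, 817.5 and 790.0 CPM in Huh7 P samples 1 to 3, and 515.0, 734.6 and 640.9 CPM in Huh7 LR samples 1 to 3. Huh7 LR sample 2 lay above Huh7 P sample 1, so the lines overlapped, and Huh7 LR sample 1 was the lowest of the 6. HSPA5 fell by 19.1%, from 779 ± 44.5 to 630 ± 110 CPM (SD, n = 3 per line, log2 fold change -0.31, SE 0.11, edgeR adjusted p = 0.0445). This call was lost in edgeR when Huh7 P sample 1, 2 or 3, Huh7 LR sample 1 or Huh7 LR sample 3 was left out, with adjusted p values between 0.0532 and 0.142, and in limma on FPKM (adjusted p of 0.0534 and 0.0543). Without Huh7 LR sample 1 its log2 fold change was -0.18.

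HSP90B1 (GRP94; ENSG00000166598, chr12:103930107-103953645, GRCh38 plus strand) is the HSP90 chaperone of the ER and folds receptors and integrins among other clients. It measured 1099, 1137 and 1235 CPM in Huh7 P and 719.9, 687.3 and 742.3 CPM in Huh7 LR. Every Huh7 LR library was below every Huh7 P library, and the gap between the lines was wider than the spread within either. HSP90B1 fell by 38.1% (1157 ± 70.6 to 716 ± 27.7 CPM, SD, n = 3, log2 fold change -0.69, SE 0.07, edgeR adjusted p = 2.49e-05). It was the largest decrease of the 10 genes, and it was called under all 15 alternatives run for it.

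Calnexin and calreticulin are the lectin chaperones that hold newly made glycoproteins, the first in the ER membrane and the second in the lumen. CANX (ENSG00000127022, chr5:179678628-179730925, GRCh38 plus strand) measured 878.9, 929.6 and 928.1 CPM in Huh7 P and 666.1, 632.8 and 669.4 CPM in Huh7 LR. The lines did not overlap, and the 3 libraries of each line lay close together. CANX fell by 28.1% (912 ± 28.9 to 656 ± 20.3 CPM, SD, n = 3, log2 fold change -0.48, SE 0.07, edgeR adjusted p = 0.000172), a call found under all 15 alternatives. CALR (ENSG00000179218, chr19:12938578-12944489, GRCh38 plus strand) measured 1087, 1153 and 1202 CPM in Huh7 P and 783.3, 1170 and 1009 CPM in Huh7 LR. Huh7 LR sample 1 was far below the rest, while sample 2 lay among the Huh7 P libraries. CALR did not pass the test (1147 ± 57.7 and 987 ± 194 CPM, SD, n = 3, log2 fold change -0.22, SE 0.12, edgeR adjusted p = 0.171). Without Huh7 LR sample 2 its log2 fold change was -0.35 and it passed (adjusted p = 0.018), and without Huh7 LR sample 1 its log2 fold change was -0.07 (adjusted p = 0.523). Over all 15 alternatives the adjusted p ran between these values, so the size of the CALR difference rested on which of these libraries was kept. Whether the lectins differ from each other in their change was not tested.

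PDIA4 and PDIA6 belong to the protein disulphide isomerases, which form and rearrange disulphide bonds in the ER. PDIA4 (ENSG00000155660, chr7:149003062-149028641, GRCh38 minus strand) measured 369.7, 382.6 and 384.2 CPM in Huh7 P and 285.4, 374.5 and 314.2 CPM in Huh7 LR. Huh7 LR sample 2 fell within the Huh7 P range, and the other Huh7 LR libraries were below it. PDIA4 did not pass (379 ± 7.9 and 325 ± 45.5 CPM, SD, n = 3, log2 fold change -0.22, SE 0.09, edgeR adjusted p = 0.0738). It passed with DESeq2's Wald test (adjusted p = 0.04), and in edgeR without Huh7 LR sample 2 (log2 fold change -0.33, adjusted p = 0.00254). Without Huh7 LR sample 1 its log2 fold change was -0.14 (adjusted p = 0.212, the highest of the 15 alternatives). PDIA6 (ENSG00000143870, chr2:10783391-10837977, GRCh38 minus strand) measured 275.7, 307.3 and 311.9 CPM in Huh7 P and 233.9, 271.1 and 239.3 CPM in Huh7 LR. The lines did not overlap, though Huh7 LR sample 2 came close to Huh7 P sample 1. PDIA6 fell by 16.8% (298 ± 19.7 to 248 ± 20.1 CPM, SD, n = 3, log2 fold change -0.27, SE 0.08, edgeR adjusted p = 0.0197). That call was lost without Huh7 P sample 2, Huh7 P sample 3 or Huh7 LR sample 3 (adjusted p of 0.0898, 0.0762 and 0.0834). The gene ATP6V1C2 overlaps 25.2% of the PDIA6 exon bases on the opposite strand, but had only 61 to 119 counts per library.

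**Figure D3:**
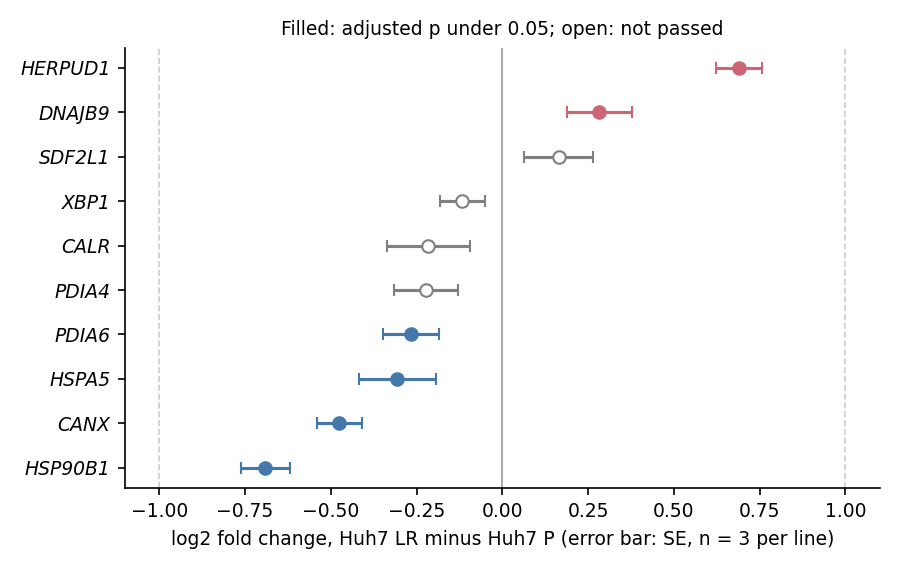
Log2 fold change of each of the 10 genes, Huh7 LR minus Huh7 P, with its standard error (bars, 3 samples per line); filled points passed an adjusted p of 0.05 in edgeR and open points did not. The values run from -0.69 for HSP90B1 to 0.69 for HERPUD1, and all lie inside the dashed lines of 2-fold change.

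DNAJB9 (ERdj4) and SDF2L1 are partners of BiP: the first is a J-domain protein that helps BiP hold IRE1 inactive, and the second works with the J-domain protein ERdj3. DNAJB9 (ENSG00000128590, chr7:108569568-108574850, GRCh38 plus strand) measured 25.4, 23.7 and 28.0 CPM in Huh7 P and 31.1, 28.4 and 34.3 CPM in Huh7 LR. The lines did not overlap, but Huh7 LR sample 2 was only just above Huh7 P sample 3. DNAJB9 rose by 21.7% (25.7 ± 2.17 to 31.3 ± 2.96 CPM, SD, n = 3, log2 fold change 0.28, SE 0.09, edgeR adjusted p = 0.0303). The call was lost without Huh7 P sample 1, Huh7 P sample 2 or Huh7 LR sample 3 (adjusted p of 0.0892, 0.136 and 0.147). PNPLA8 and THAP5 overlap its exons on the opposite strand by 99 and 183 bases. PNPLA8 had 1666 to 1907 counts per library in Huh7 P and 2342 to 2586 in Huh7 LR. THAP5 had 1568 to 1805 counts in Huh7 P and 1160 to 1361 in Huh7 LR. Whether counting used strand is not stated, and the part of these genes in the DNAJB9 level was not tested. SDF2L1 (ENSG00000128228, chr22:21642261-21644298, GRCh38 plus strand) measured 19.7, 18.0 and 17.5 CPM in Huh7 P and 19.1, 23.3 and 19.4 CPM in Huh7 LR. Its lines overlapped and only Huh7 LR sample 2 stood above the rest (18.4 ± 1.15 and 20.6 ± 2.31 CPM, SD, n = 3, log2 fold change 0.16, SE 0.10, edgeR adjusted p = 0.208). Without that library the log2 fold change was 0.08 (adjusted p = 0.526).

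HERPUD1 (ENSG00000051108, chr16:56932048-56944863, GRCh38 plus strand) encodes an ER membrane protein of the degradation complex, which passes misfolded proteins to the cytosol for the proteasome. It measured 43.0, 46.5 and 46.3 CPM in Huh7 P and 74.0, 72.4 and 72.6 CPM in Huh7 LR. The lines were far apart and the Huh7 LR libraries nearly equal. HERPUD1 rose by 61.3% (45.3 ± 2.0 to 73.0 ± 0.90 CPM, SD, n = 3, log2 fold change 0.69, SE 0.07, edgeR adjusted p = 1.5e-05), a call found under all 15 alternatives. It was thus about as far above its Huh7 P level on the log2 scale as HSP90B1 was below it.

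XBP1 (ENSG00000100219, chr22:28794555-28800597, GRCh38 minus strand) encodes the transcription factor made active by IRE1. It measured 280.1, 294.2 and 299.9 CPM in Huh7 P and 268.2, 278.8 and 259.4 CPM in Huh7 LR. All Huh7 LR libraries were below all Huh7 P libraries, but the gap was smaller than the spread within either line. XBP1 did not pass (291 ± 10.2 and 269 ± 9.7 CPM, SD, n = 3, log2 fold change -0.12, SE 0.07, edgeR adjusted p = 0.179). In limma on log2(FPKM + 1) the difference was -0.05 (adjusted p = 0.564). These values cover the spliced and the unspliced mRNA together.

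Levels were compared between genes only per length, as FPKM. In Huh7 P, CALR had the highest level (554 ± 22.5 FPKM, SD, n = 3), followed by HSP90B1 (377 ± 19.1), CANX (213 ± 11.6), HSPA5 (183 ± 9.22) and XBP1 (158 ± 0.84). PDIA4 (120 ± 1.41) and PDIA6 (117 ± 6.76) overlapped each other, and so did SDF2L1 (19.5 ± 1.42) and HERPUD1 (18.4 ± 0.69), while DNAJB9 was lowest (8.70 ± 0.69 FPKM). The order changed in Huh7 LR. CALR (485 ± 91.5 FPKM) and HSP90B1 (236 ± 10.1) remained on top, but XBP1 (154 ± 5.74), HSPA5 (151 ± 25.1) and CANX (146 ± 4.09) came to lie together, with neighbours overlapping. HERPUD1 (30.4 ± 0.16 FPKM) stood above SDF2L1 (22.3 ± 2.33) in Huh7 LR with no overlap, and DNAJB9 was again lowest (10.8 ± 1.05).

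**Figure D4:**
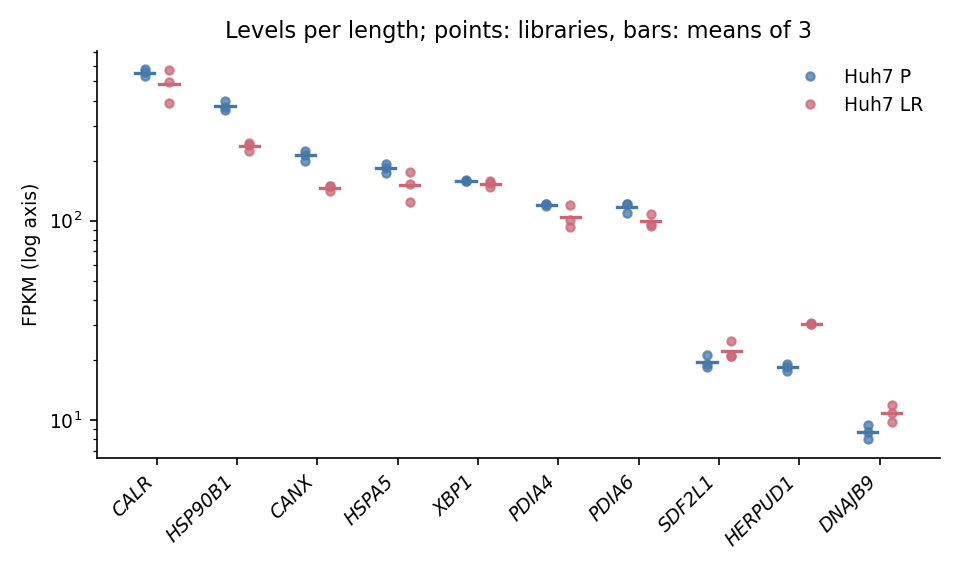
Level per length of the 10 genes in FPKM on a log axis, ordered by the mean of Huh7 P; points are libraries and bars are means of 3. CALR is highest in both lines, DNAJB9 is lowest, and HERPUD1 lies above SDF2L1 only in Huh7 LR.

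Summed over the 10 genes, the level was 1720, 1780 and 1804 FPKM in Huh7 P and 1306, 1564 and 1449 FPKM in Huh7 LR. The lines did not overlap, and the Huh7 LR libraries spread more than the Huh7 P libraries. The mean was 1768 ± 43.4 FPKM in Huh7 P and 1439 ± 129 FPKM in Huh7 LR (SD, n = 3, log2 ratio -0.30; two-sided exact permutation test p = 0.1, the smallest p that 3 against 3 samples allow). As a share of all counted reads it was 0.499% ± 0.0147 and 0.400% ± 0.0267 (SD, n = 3, exact permutation p = 0.1). The abundant chaperones make up most of this sum, so the increases of HERPUD1 and DNAJB9 hardly enter it.

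Within the lines, the libraries were not alike. Huh7 P sample 1 was the lowest of its line for 8 of the 10 genes, against 35.8% of all genes and loci, and Huh7 LR sample 2 was the highest of its line for 6, against 38.0%. These shares were also high in the contrast lists given below. Huh7 P sample 1 was lowest for 58.3% of the cytosolic heat shock genes and 70.0% of the mitochondrial chaperones and proteases. Huh7 LR sample 2 was highest for 58.3% and 60.0% of these lists. Over the 6 libraries, the log2 CPM of PDIA4 (Pearson r = 0.971), CALR (0.967) and PDIA6 (0.910) followed HSPA5 most closely, then XBP1 (0.771), HSP90B1 (0.689) and CANX (0.675). SDF2L1 (-0.128), DNAJB9 (-0.699) and HERPUD1 (-0.707) did not follow it. These r values are a description over 6 libraries that fall into the lines, so both the line difference and the differences in Huh7 LR between samples enter them. Among 5830 annotated genes outside the lists with a mean above 5 log2 CPM, those most like HSPA5 were MCRS1 and CNPY2 (r = 0.996 each), CLP1 (0.995), and DRG1 and MESD (0.994 each). MESD, an ER chaperone of LDL receptor family proteins, measured 51.0, 57.5 and 53.6 CPM in Huh7 P and 31.9, 48.4 and 42.9 CPM in Huh7 LR. MESD passed the test (edgeR adjusted p = 0.0257), while MCRS1, CNPY2, CLP1 and DRG1 did not (0.0633 to 0.106). The MESD values were picked after they were seen.

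The other genes of the pathway were taken in 7 lists by role, and cytosolic and mitochondrial chaperones were added as a contrast. The counts of each list are to be read against the 23.3% higher and 22.4% lower among all genes and loci, and the 20.3% and 35.0% among the 4383 of highest level. Of the 10 sensors and transducers, 3 were higher, 2 were lower and 5 did not pass (median log2 fold change 0.04). ERN1, the gene of IRE1, was 14.4, 14.97 and 14.0 CPM in Huh7 P and 26.8, 18.3 and 20.3 CPM in Huh7 LR, and the lines did not overlap. It rose by 50.8% (log2 fold change 0.59, SE 0.13, edgeR adjusted p = 0.00333), with Huh7 LR sample 1 well above the other Huh7 LR libraries. ATF6 rose by 22.3% (0.29, SE 0.08, adjusted p = 0.0122), a call lost without Huh7 P sample 2 or Huh7 LR sample 3 (adjusted p of 0.0656 and 0.0642). EIF2AK3, the gene of PERK, did not pass (37.2 ± 0.87 and 39.6 ± 3.78 CPM, SD, n = 3, adjusted p = 0.401). EIF2S1, the translation factor that PERK phosphorylates, fell by 30.9% (log2 fold change -0.53, SE 0.07, adjusted p = 8.88e-05). NFYB, a subunit of NF-Y, fell by 34.4% (log2 fold change -0.61, SE 0.10, adjusted p = 0.000447), while NFYA (log2 fold change -0.0049) and NFYC (0.15) did not pass.

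In the PERK arm, which runs through ATF4 and CHOP, 4 of 8 genes were higher, 2 were lower and 2 did not pass (median 0.04). DDIT3, the gene of the death-promoting factor CHOP, was 6.14, 6.80 and 7.55 CPM in Huh7 P and 14.95, 12.2 and 15.9 CPM in Huh7 LR. All Huh7 LR libraries stood above all Huh7 P libraries, and DDIT3 was called by more than 2-fold (log2 fold change 1.07, SE 0.13, edgeR adjusted p = 7.19e-05). The 2-fold call ended without Huh7 P sample 1 (log2 fold change 0.997), without Huh7 LR sample 3 (0.989) and in limma on log2(FPKM + 1), though DDIT3 stayed higher by the 0.05 threshold in each. MARS overlaps 27.2% of its exon bases on the opposite strand and has 14751 to 17050 counts per library against 420 to 1087 of DDIT3, and MBD6 overlaps 4.44% on the opposite strand, with 3019 to 4145 counts in Huh7 P and 5612 to 6057 in Huh7 LR. Without a stated strand the DDIT3 level is uncertain, and the part of these genes in it was not tested. ATF3, a stress-induced transcription factor, rose from 2.56 ± 0.15 to 5.22 ± 1.08 CPM (SD, n = 3, log2 fold change 1.02, SE 0.17, adjusted p = 0.000618), also by more than 2-fold. That 2-fold call ended in both limma fits on FPKM and when Huh7 P sample 1, 2 or 3, Huh7 LR sample 1 or Huh7 LR sample 3 was left out, with adjusted p values of 0.00132 to 0.00465, and without Huh7 LR sample 1 its log2 fold change was 0.87. PPP1R15A (GADD34), which brings translation back by removing phosphate from the product of EIF2S1, rose by 32.4% (0.40, SE 0.08, adjusted p = 0.00194). ATF4 itself fell by 14.8% (371.6 ± 7.27 to 316 ± 18.3 CPM, SD, n = 3, -0.23, SE 0.07, adjusted p = 0.0172), a call lost without Huh7 P sample 2, Huh7 P sample 3 or Huh7 LR sample 3 (adjusted p of 0.0859, 0.0529 and 0.0805) and in limma on FPKM. TRIB3, a target of ATF4 and CHOP, fell by 26.2% (-0.44, SE 0.12, adjusted p = 0.0116), with Huh7 LR sample 1 (59.3 CPM) near the lowest Huh7 P library (62.6 CPM), a call lost without Huh7 LR sample 3 (adjusted p = 0.0561).

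Of 16 other ER chaperones and cofactors, 3 were higher, 3 were lower and 10 did not pass (median -0.11). DNAJC1, a membrane J-domain protein, rose by 47.9% (log2 fold change 0.56, SE 0.12, edgeR adjusted p = 0.00232), and CLGN, a relative of calnexin known from testis, rose by 41.8% (0.50, SE 0.12, adjusted p = 0.00544). SEC63, the J-domain partner of the translocation channel, fell by 24.5% (-0.41, SE 0.09, adjusted p = 0.00281). HYOU1, a nucleotide exchange factor of BiP, was 241 ± 10.9 CPM in Huh7 P and 217 ± 19.1 CPM in Huh7 LR (SD, n = 3) and did not pass (adjusted p = 0.134). It passed without Huh7 LR sample 2 (adjusted p = 0.0156, and up to 0.322 over the alternatives), as CALR and PDIA4 did. DNAJB11 (log2 fold change -0.06) and DNAJC3 (0.02), both partners of BiP, did not pass either.

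Among 12 further oxidoreductases, 5 were higher, 2 were lower and 5 did not pass (median 0.11). ERO1B, an oxidase that recharges disulphide isomerases, was 1.35, 1.17 and 0.76 CPM in Huh7 P and 4.95, 4.59 and 5.67 CPM in Huh7 LR, with a log2 fold change of 2.21 (SE 0.21, edgeR adjusted p = 1.44e-05). QSOX1, which makes disulphide bonds in the secretory pathway, was 35.6, 35.6 and 34.8 CPM in Huh7 P and 90.6, 87.0 and 85.9 CPM in Huh7 LR (log2 fold change 1.31, SE 0.06, adjusted p = 1.97e-07). Both were called by more than 2-fold, ERO1B not in limma on log2(FPKM + 1) (0.74), and the lines lay far apart for each. PDIA5 nearly doubled, from 34.8 ± 0.41 to 69.2 ± 2.47 CPM (SD, n = 3, 0.99, SE 0.07, adjusted p = 1.36e-06), and shares 12.2% of its exon bases with SEC22A on the same strand. P4HB, the founding protein disulphide isomerase, rose by 23.2% (0.30, SE 0.08, adjusted p = 0.0132), whereas PDIA3, which works with calnexin and calreticulin, did not pass (log2 fold change 0.07, adjusted p = 0.479). ERO1A, the relative of ERO1B, was 82.6 ± 4.91 CPM in Huh7 P and 63.9 ± 12.5 CPM in Huh7 LR (SD, n = 3, log2 fold change -0.37, SE 0.12, adjusted p = 0.0249). Its call was lost without Huh7 P sample 2 or 3 and without Huh7 LR sample 2 or 3 (adjusted p between 0.0640 and 0.0975, log2 fold change -0.24 without Huh7 LR sample 2), with library totals alone and in limma on FPKM.

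Of the 20 genes of ER-associated degradation (ERAD), DERL3 had too few counts to test, 8 of the other 19 were higher, 0 were lower and 11 did not pass (median 0.13), which is 42.1% higher and 0% lower, against 23.3% and 22.4% of all genes and loci. By an unadjusted p under 0.05 of edgeR, 8 were higher and 1 was lower, and with DESeq2's Wald test 8 were higher and 1 was lower by adjusted p. HERPUD2, the relative of HERPUD1, was 8.69, 8.20 and 10.0 CPM in Huh7 P and 20.0, 18.0 and 18.9 CPM in Huh7 LR. The lines lay far apart, and it was called by more than 2-fold (log2 fold change 1.08, SE 0.10, edgeR adjusted p = 1.53e-05), though not in limma on log2(FPKM + 1) (0.85). SYVN1, the ubiquitin ligase HRD1 at the centre of the complex, rose by 35.4% (0.44, SE 0.07, adjusted p = 0.000387), and EDEM1, which trims mannose from misfolded glycoproteins, rose by 33.0% (0.41, SE 0.10, adjusted p = 0.00529). EDEM2, a relative of EDEM1, was higher too (0.48, adjusted p = 0.000573), while SEL1L, the partner of SYVN1, did not pass (103.7 ± 3.05 and 103.9 ± 10.6 CPM, SD, n = 3). SYVN1 shares 7.24% of its exon bases with FAU on the same strand.

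In the list of translocation and N-glycosylation, 0 of 21 genes were higher, 6 were lower and 15 did not pass (median -0.10). By an unadjusted p under 0.05 of edgeR, 0 were higher and 7 were lower, the same counts as by adjusted p with DESeq2's Wald test. The 6 included the signal peptidase subunits SEC11C (-0.58, SE 0.11, adjusted p = 0.00173), SPCS3 (-0.35, SE 0.09, adjusted p = 0.0105) and SPCS2 (-0.26, SE 0.08, adjusted p = 0.0226). The SPCS2 call was lost without Huh7 P sample 1, Huh7 P sample 2 or Huh7 LR sample 3 (adjusted p of 0.0764, 0.0644 and 0.111), and 2 to 5 genes of this list were lower when 1 library was left out.

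Of 14 genes of retrieval and COPII vesicle transport, 2 were higher, 0 were lower and 12 did not pass (median 0.08), and 0 were lower by an unadjusted p under 0.05 of edgeR or by DESeq2's Wald test. KDELR2, a receptor that returns escaped chaperones such as BiP to the ER, was 255.9, 262 and 266 CPM in Huh7 P and 457, 464 and 445 CPM in Huh7 LR. It rose by 74.2% (log2 fold change 0.80, SE 0.06, edgeR adjusted p = 4.07e-06), with 9.42% of its exon bases shared with DAGLB on the same strand. SEC13, a coat protein, rose by 16.6% (0.22, SE 0.06, adjusted p = 0.013), a call lost without Huh7 P sample 2 or 3 (adjusted p of 0.0519 and 0.0532).

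Outside the ER, 0 of 12 cytosolic heat shock genes were higher, 6 were lower and 6 did not pass (median -0.25), and 9 were lower by an unadjusted p under 0.05 of edgeR, against 26.0% of all genes and loci. DESeq2's Wald test gave 0 higher and 8 lower, against 23.4% and 23.0%. HSPH1, an exchange factor of HSP70, fell by 43.7% (-0.83, SE 0.08, adjusted p = 1.59e-05), and the inducible HSP90 gene HSP90AA1 fell by 33.1% (-0.58, SE 0.08, adjusted p = 0.000114). HSPB1, the small heat shock protein HSP27, fell by 33.9% (-0.60, SE 0.14, adjusted p = 0.00418). HSPA1A and HSPA1B are near-identical copies, so how their reads were divided is uncertain. Of 10 mitochondrial chaperones and proteases, 0 were higher, 8 were lower and 2 did not pass (median -0.44), with the same counts of higher and lower genes by an unadjusted p under 0.05 of edgeR and with DESeq2's Wald test. Of all genes and loci 22.4% were lower, and among the 4383 of highest level, which hold 8 of these 10 genes, 35.0% were lower. HSPD1, the chaperonin HSP60, fell by 42.2% (1622 ± 80.8 to 937 ± 16.6 CPM, SD, n = 3, -0.79, SE 0.07, adjusted p = 6.5e-06). YME1L1, an inner membrane protease, fell by 41.6% (-0.78, SE 0.07, adjusted p = 6.04e-06), and TRAP1, the HSP90 of mitochondria, fell by 35.5% (-0.63, SE 0.08, adjusted p = 7.26e-05), with 29.3% of its exon bases overlapped by DNASE1 on the opposite strand. The decreases of HSP90B1, CANX, HSPA5 and PDIA6 stood beside decreases of cytosolic and mitochondrial chaperones, and a difference between these lists was not tested.

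**Figure D5:**
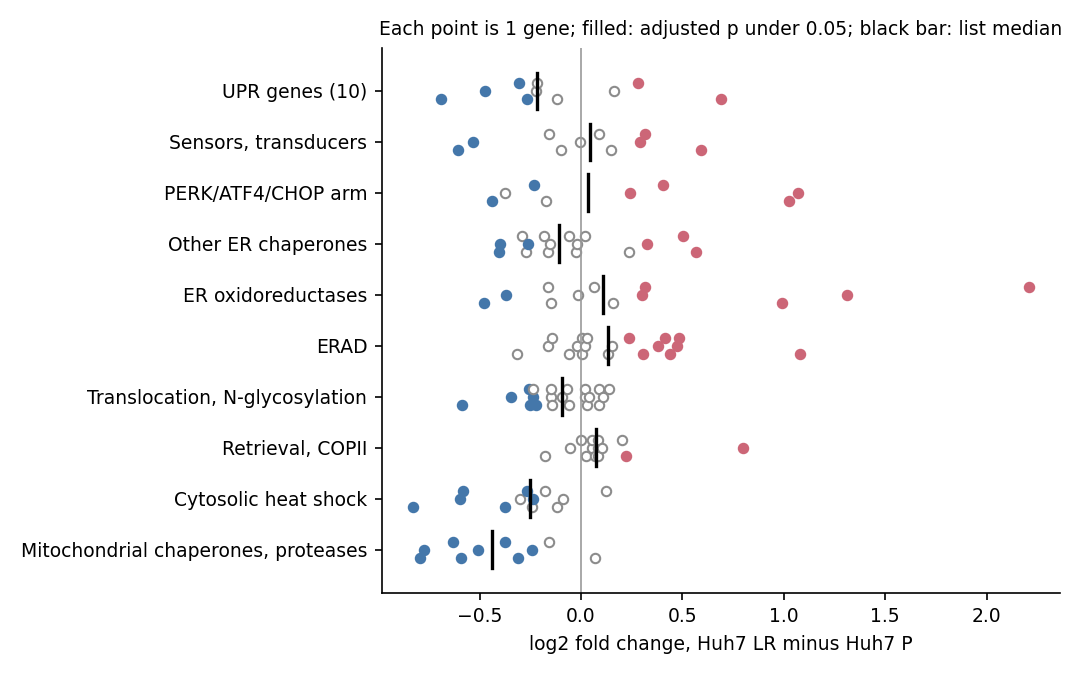
Log2 fold change, Huh7 LR minus Huh7 P, of every tested gene of the 10 lists (1 point per gene); filled points passed an adjusted p of 0.05 (red higher, blue lower), open points did not, and black bars are list medians. The ERAD list has 8 filled points to the right and 0 to the left, and the mitochondrial list has 8 to the left and 0 to the right.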

How the data were processed

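Poly(A) RNA was sequenced from 3 Huh7 P and 3 Huh7 LR samples. The authors deposited whole-number read counts per gene, not normalised, and FPKM values scaled by length and depth. The submitters' processing notes name TopHat2, Cufflinks, DESeq and mm10, although the gene identifiers are human. The roles of these tools, the strand and the annotation are not given in the sources used here, and the labels' extraction text describes honeybee larvae. Coordinates are from GENCODE release 29 (GRCh38). Lines naming no gene (34) were dropped.

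The fits used edgeR 4.0.16 in R 4.3.3 (filterByExpr with minimum count 10 and minimum total 15, TMM, quasi-likelihood test, all 6 libraries, no block). A count of 0 allows up to 3 counts, 0.042 to 0.0478 CPM, for counting error only. P-values measure the spread between samples, described as independent samples of each line. The members and lists were chosen with earlier results of these data known. Named from each list were all 2-fold calls, up to 3 largest log2 fold changes with an adjusted p under 0.05, and a fixed set of sensors and markers; NFYA, NFYC and MESD's values were added after they were seen. Alternatives were DESeq2 1.42.0 size factors and Wald test, library totals, no filter, 10 counts in every library, annotated genes only, a replicate block, limma 3.58.1 trend on log2(FPKM + 0.1) and log2(FPKM + 1), other thresholds, and each library left out. The background of genes with the highest mean level, and the promoter set without the 10 genes, were added after seeing the data. Tests were tested on simulated data. Figures used matplotlib 3.10.9. ER retrieval tails were not analysed here. The values of 1 gene that the naming rule picks are not reported here.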

Additional observations from a re-analysis of the deposited data

How the results depend on the processing

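Of the 15 alternatives run for each of the 49 named genes, none reversed a called direction. Among the named genes' results, 432 of those under other settings kept their side of the threshold, 7 lost it and 2 gained it, and with 1 library left out 265 kept it, 26 lost it and 3 gained it. The ranges over the libraries left out were 1 to 2 higher and 2 to 6 lower for the 10 genes, 0 to 3 lower for the PERK arm, 1 to 2 lower for the oxidoreductases, 0 to 1 lower for ERAD, 2 to 5 lower for translocation, 1 to 2 higher and 0 to 1 lower for retrieval and COPII, and 22 to 32 lower for UPRE genes, against 34. For all genes and loci these ranges were 3349 to 4135 higher and 3002 to 3984 lower, against 4093 and 3923. Lower counts moved to 1 of the oxidoreductases with library totals alone, to 5 of the other chaperones and 1 of ERAD with DESeq2's Wald test, and to 1 of ERAD without a filter. Both limma fits on FPKM gave 1 lower in the PERK arm, 1 among the other chaperones, 1 among the oxidoreductases and 1 higher in translocation. On log2(FPKM + 1), 268 genes and loci were higher and 84 lower by more than 2-fold, against 776 and 312. At an adjusted p under 0.01, 1 of the 10 genes was higher and 2 were lower (16.2% and 15.3% of all genes and loci), and 0 and 0 by the 2-fold rule. The causes of these changes were not tested.

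With the replicate number as a block, 2 of the 10 genes were higher and 5 lower, PDIA4 being added (log2 fold change -0.23, adjusted p = 0.0381), and 1 ERAD gene was lower. Over the settings that kept all libraries, the block included, 3430 to 4378 of all genes and loci were higher, against 4093. Over the same settings 3214 to 4033 were lower, against 3923. The number of genes and loci tested differed between these settings. Same-numbered samples of the lines deviated with correlations of 0.029, 0.031 and 0.032, each the highest for its sample but under 0.1, so the numbers were not taken to pair the samples. The ER retrieval tails were not run, and no sum with overlapping genes was made because none of the 10 genes shares exon sequence on its own strand. Low genes are limited by counting error as well as by the spread between samples, as ERO1B rested on 50 to 97 counts per Huh7 P library.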

Other observations

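Genes other than the 10 that hold ERSE or ERSE-II in a promoter window were followed in the same edgeR fit. Of the 44 genes with either element, 36 were matched by symbol to the table and 31 were tested. Of these, 6 were higher in Huh7 LR, 9 were lower and 16 did not pass (median log2 fold change -0.07), that is 19.4% higher and 29.03% lower, against 23.3% and 22.4% of all genes and loci. Without the 8 of the 10 genes that hold an element, 23 were tested, of which 5 were higher, 5 were lower and 13 did not pass (median -0.02). The members of this set were found by sequence. ERO1B, described above, holds ERSE and had the largest log2 fold change of the set (2.21, SE 0.21, edgeR adjusted p = 1.44e-05). It was the 1 gene of the set called by more than 2-fold. The other genes named here were chosen after their values were seen. FICD, which adds AMP to BiP, rose from 3.59 ± 0.48 to 5.35 ± 0.24 CPM (SD, n = 3, log2 fold change 0.58, SE 0.14, edgeR adjusted p = 0.00657). SYNPO, an actin-associated protein, rose from 20.3 ± 1.52 to 39.0 ± 1.22 CPM (0.94, SE 0.08, adjusted p = 6.93e-06). SHCBP1, which is high in dividing cells, fell from 34.2 ± 0.36 to 21.2 ± 2.50 CPM (-0.69, SE 0.09, adjusted p = 0.000145), and EIF2A, a translation initiation factor, fell from 96.8 ± 12.3 to 67.7 ± 7.27 CPM (-0.52, SE 0.10, adjusted p = 0.00202). SERP1 (0.07) and CRELD2 (-0.02), both known to be induced by ER stress, did not pass.

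The UPRE core TGACGTGG was in 256 of 35116 windows (0.729%) on either strand. Of the genes that hold it, 129 were tested, and 32 were higher, 34 were lower and 63 did not pass (median -0.05), shares near those of all genes and loci.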
